A study of Mus musculus with 10 samples.

Results

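The genes described here mark the adrenal capsule, fibroblasts and mural cells, the last being the smooth muscle cells and pericytes that wrap blood vessels. They are 10 genes chosen by name, namely Pdgfra, Pdgfrb, Acta2, Myh11, Tagln, Rgs5, Des, Gli1, Dcn and Lum, each represented by its brightest array probe annotated to that gene alone. All 10 were measured, among 19669 genes and 25664 probes in all, and each had 1 such probe. RNA of whole adrenal glands from 5 mice labelled Crem knock-out (KO, Crem-/-) and 5 labelled wild-type (WT) was hybridised to Affymetrix arrays, 1 array per mouse. Mice of both genotypes shared a mixed background (129Pas x C57Bl/J), were 8 weeks old, were untreated and were killed at 0 h circadian time, which was the start of the light phase. Crem, the cAMP responsive element modulator, was absent from the whole animal in the KO mice by label, so that the genotype was not limited to any cell type of the gland. The question addressed was whether gene expression in the adrenal gland differed between these genotypes. Batch 1 held KO 1, KO 2 and WT 1, batch 2 held KO 3 and KO 4, batch 3 held KO 5, WT 2, WT 3 and WT 4, and batch 4 held WT 5, so only batches 1 and 3 held both genotypes.

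The adrenal capsule is a thin layer of fibroblast-like cells around the steroid-producing cortex, and some of its cells respond to Sonic hedgehog from the cortex through the transcription factor Gli1 and can give rise to cortical cells. Fibroblasts carry the platelet-derived growth factor (PDGF) receptor alpha and deposit matrix that includes the small leucine-rich proteoglycans decorin and lumican. Mural cells carry PDGF receptor beta, and their contractile proteins, smooth muscle actin, myosin heavy chain and transgelin, let vessels change their calibre. In RNA of a whole gland, fewer cells of a type and less RNA per cell cannot be told apart.

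Levels are log2 values, on which a difference of 1 is a doubling, and the median of an array lay between 7.17 and 7.25. Crem itself, the gene named by the labels, read 7.38, 7.97, 6.86, 6.84 and 7.77 on KO 1 to KO 5 and 7.45, 7.23, 8.14, 7.62 and 7.27 on WT 1 to WT 5. These ranges overlapped, and which part of the transcript the probe reads is unknown here, so this probe did not check the labels, and KO and WT below stand for what the labels say. Several arrays stood apart. The first principal component, with 53.8% of the variance over all probes, placed KO 2, KO 5 and WT 3 at 60.7 to 69.4, WT 4 at 17.4 and the other 6 arrays between -54.0 and -23.7. KO 1 had the highest mean of the hepatocyte marker list (13.42, against 7.28 to 9.91 on the other arrays) and the lowest of the chromaffin list (8.36, against 11.34 to 12.47). The adipocyte list averaged 8.50 to 12.70 in KO and 9.19 to 11.13 in WT, and was highest on KO 1 and KO 3. Adrenal cortex markers, such as Star and Cyp11a1, averaged 12.20 to 12.80 in KO and 12.66 to 12.87 in WT, above the array medians on every array.

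Across the 10 genes, none passed an adjusted p of 0.05 between KO and WT, and the adjusted p was 0.999 for each (limma, Benjamini-Hochberg over all 25664 probes). The same held for 0 of 25664 probes, or 0% of all. At an unadjusted p under 0.05, Pdgfra and Myh11 were lower in KO and no gene of the 10 was higher, so 2 of 10 were lower where 2.5% of all probes were. The mean was lower in KO for 9 of the 10 genes, with Rgs5 as the exception, against 50.6% of all probes. Among the 9, the difference was only -0.01 for Des and -0.02 for Gli1. The 10 genes share the same arrays, so they are not separate observations of the direction. Their median difference of KO minus WT was -0.23 on the log2 scale, beside a median of -0.003 over all probes. All 10 genes were among the 12832 probes at or above the median level, over which the median was -0.07. A limma fit on those probes alone had 377 lower and 25 higher in KO at an unadjusted p under 0.05. In none of the 10 did every KO array lie on the same side of every WT array, and 0.413% of all probes had every KO array below every WT array.

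**Figure D1:**
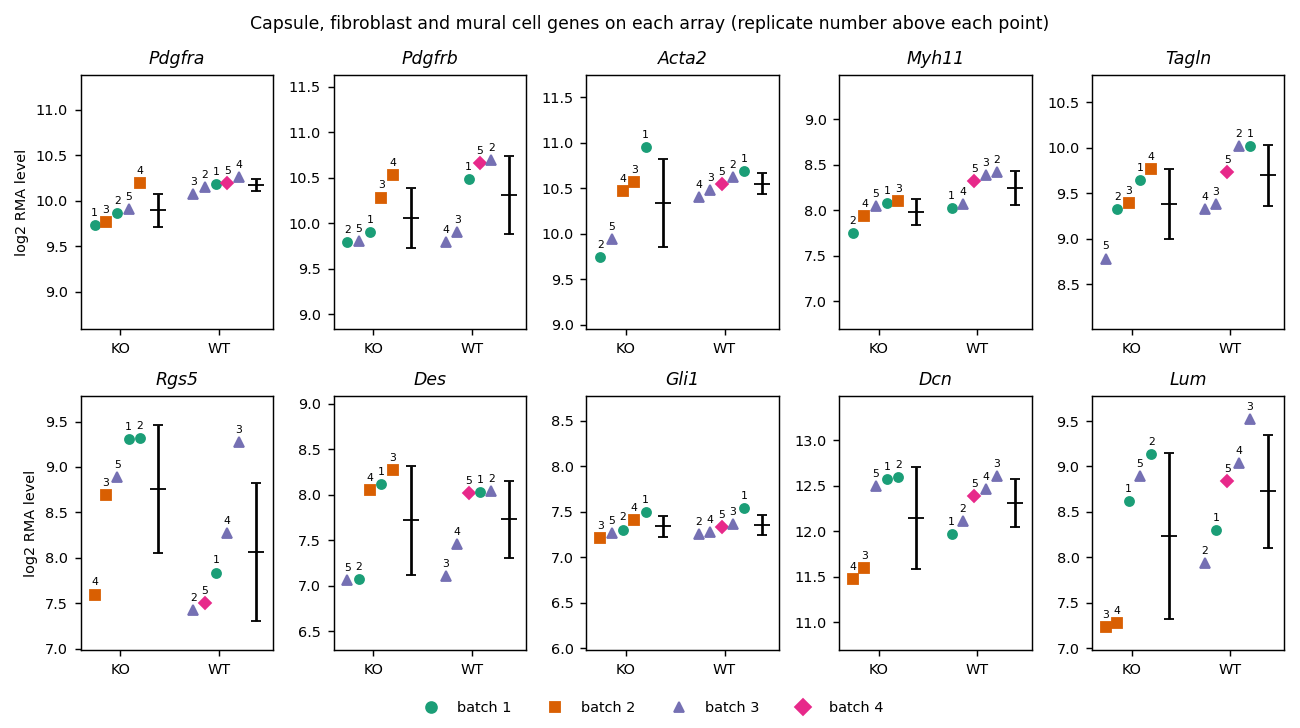
Level of each of the 10 genes on every array (vertical axis, log2 RMA level; every panel spans the same number of log2 units, with its own centre), by group, with the replicate number above each point, the batch as its shape and colour, and the group mean ± SD as a bar (n = 5). The groups overlapped in every panel, and Pdgfra had 4 of 5 KO arrays below all WT arrays.

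The PDGF receptors come first. Pdgfra, the receptor that marks fibroblasts and other mesenchymal cells, read 9.73, 9.87, 9.77, 10.20 and 9.91 on KO 1 to KO 5 and 10.18, 10.15, 10.07, 10.26 and 10.20 on WT 1 to WT 5. Thus 4 KO arrays lay below all 5 WT arrays, and KO 4 alone lay among the WT arrays. The KO arrays averaged 9.90 ± 0.18 and the WT arrays 10.17 ± 0.07 (SD, n = 5 each), a difference of -0.28 with a standard error of 0.10 and a 95% confidence interval of -0.51 to -0.05. A two-sided exact permutation test over every choice of 5 of the 10 arrays gave p = 0.0317, where 0.00794 is the smallest this design allows, and the limma adjusted p was 0.999. The difference was -0.38 within batch 1, -0.25 within batch 3 and -0.31 with batch as a block. Without KO 4 it was -0.35, and it stayed between that value and -0.24 when any single array was left out, with an unadjusted limma p under 0.05 in 9 of these 10 fits, all but the one without KO 1. Without both KO 1 and KO 3, its lowest arrays, the difference was -0.18, outside that range. Over all 10 arrays, the unadjusted limma p was not under 0.05 with batch as a fixed block and with 2 principal components as covariates. The same held for eBayes with trend and robust. The p was under 0.05 with a random block, median shift, repeated quantile normalization, brighter probes, arrayWeights or the adipocyte list mean as covariate. Of the 10 genes, Pdgfra had the difference with the smallest unadjusted p, and it was little tied to the first principal component, with r = -0.08 over the 10 arrays.

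Pdgfrb, the receptor through which PDGF recruits pericytes to vessels, read 9.90, 9.79, 10.28, 10.53 and 9.80 on KO 1 to KO 5 and 10.49, 10.70, 9.91, 9.80 and 10.66 on WT 1 to WT 5. Within each genotype the arrays spread over most of the whole range, which ran from 9.79 on KO 2 to 10.70 on WT 2, and the groups overlapped. The KO mean was 10.06 ± 0.33 and the WT mean 10.31 ± 0.43 (SD, n = 5 each), a difference of -0.25 with a 95% confidence interval of -0.74 to 0.25 (exact permutation p = 0.294). Within batches the difference was larger, at -0.64 in batch 1 and -0.33 in batch 3. The receptors thus had about the same mean difference over all arrays, but the WT arrays had an SD of 0.43 for Pdgfrb and of 0.07 for Pdgfra.

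Because CREM binds the cAMP response element (CRE), the sequences before the transcription starts are shown for the genes with the smallest unadjusted p in the lower direction and with the only higher mean, Pdgfra and Rgs5. They are the 250 bases before the start in RefSeq, build GRCm38.p6, both on the + strand, at chr5:75152001-75152250 for Pdgfra and chr1:169655251-169655500 for Rgs5. Capitals mark the CRE core, TGACG, which reads CGTCA when it lies on the other strand.
Pdgfra: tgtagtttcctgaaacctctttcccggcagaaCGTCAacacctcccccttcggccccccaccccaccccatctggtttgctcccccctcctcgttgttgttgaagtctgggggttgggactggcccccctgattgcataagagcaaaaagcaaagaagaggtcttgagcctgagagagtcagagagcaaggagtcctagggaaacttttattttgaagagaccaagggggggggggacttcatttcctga
Rgs5: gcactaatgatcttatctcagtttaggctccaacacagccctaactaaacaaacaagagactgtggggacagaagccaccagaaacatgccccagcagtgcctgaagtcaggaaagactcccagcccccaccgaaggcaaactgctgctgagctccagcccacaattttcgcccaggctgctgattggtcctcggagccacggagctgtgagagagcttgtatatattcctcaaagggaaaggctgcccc
The Pdgfra sequence holds 1 CRE core, on the other strand, 218 to 214 bases before the start, and the Rgs5 sequence holds none. A RefSeq promoter, from 250 bases before to 50 after the start, was found for 4 of the 10 genes, Des, Rgs5, Pdgfra and Acta2. Des holds a CRE core on the other strand 36 to 40 bases after its start. Of all 32851 promoters of that length, 20.8% hold the CRE core, 1.79% the full CRE TGACGTCA, of which the core is a part, 1.63% a CArG box, which is the site of serum response factor (CC, then 6 bases of A or T, then GG), and 0.807% the GLI core GACCACCC. Both strands were searched for exact matches only, and by that rule none of the last 3 motifs was in the 4 promoters. Sites that differ by 1 letter were not counted. The Acta2 window, for example, holds ccctatatgg and ccttgtttgg, which each differ from the CArG box by 1 letter. These matches are descriptions of the letters in these windows.

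Among the contractile genes, Acta2, which encodes alpha smooth muscle actin, read 10.95, 9.75, 10.57, 10.47 and 9.95 on KO 1 to KO 5 and 10.69, 10.62, 10.48, 10.41 and 10.55 on WT 1 to WT 5. KO 2 and KO 5 were the lowest of all arrays and KO 1 the highest, so the KO arrays enclosed the WT arrays. The SD was accordingly 0.49 in KO and 0.11 in WT, around means of 10.34 and 10.55. The difference of -0.21 had a 95% confidence interval of -0.67 to 0.24 (exact permutation p = 0.365). It was -0.34 within batch 1 and -0.56 within batch 3, and without KO 2, KO 5 and WT 3, which stood highest on the first principal component, it was 0.095.

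Myh11, the myosin heavy chain of smooth muscle, read 8.07, 7.75, 8.09, 7.93 and 8.05 on KO 1 to KO 5 and 8.02, 8.42, 8.39, 8.07 and 8.31 on WT 1 to WT 5. WT 2, WT 3 and WT 5 lay above all KO arrays, whereas WT 1 and WT 4 lay within the KO range. The KO mean was 7.98 ± 0.14 and the WT mean 8.24 ± 0.19 (SD, n = 5 each), a difference of -0.26 with a 95% confidence interval of -0.52 to -0.01. The exact permutation test gave p = 0.0714 and limma an adjusted p of 0.999. Its unadjusted p under 0.05 in limma held in 4 of the 10 fits that left out 1 array, and the difference was -0.11 within batch 1 and -0.25 within batch 3.

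Tagln, which encodes the actin-binding protein transgelin (SM22), read 9.65, 9.32, 9.39, 9.77 and 8.78 on KO 1 to KO 5 and 10.02, 10.02, 9.38, 9.33 and 9.73 on WT 1 to WT 5. KO 5 was the lowest array, while WT 1 and WT 2 were the highest, and the other 7 arrays of both genotypes were interleaved. The difference was -0.31, with a KO mean of 9.38 ± 0.38 and a WT mean of 9.70 ± 0.33 (SD, n = 5 each), and its 95% confidence interval was -0.78 to 0.15 (exact permutation p = 0.23). With batch as a block it was -0.67 with a standard error of 0.23, and -0.54 and -0.79 within batches 1 and 3. Tagln was the 1 gene of the 10 that was lower in KO at an unadjusted p under 0.05 with batch as a block, where 5.38% of all probes were, and its adjusted p in that fit was 0.582 (limma). The block fit draws its genotype contrast from batches 1 and 3 alone, which hold 7 of the 10 arrays.

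Des encodes desmin, the intermediate filament protein of muscle cells, which is also found in pericytes. It read 8.12, 7.08, 8.28, 8.06 and 7.06 on KO 1 to KO 5 and 8.03, 8.04, 7.11, 7.46 and 8.02 on WT 1 to WT 5. The arrays fell into separate clusters regardless of genotype, with KO 2, KO 5, WT 3 and WT 4 at 7.06 to 7.46 and the other 6 at 8.02 to 8.28. The genotype means were 7.72 ± 0.60 and 7.73 ± 0.43 (SD, n = 5 each), a difference of -0.01 with a 95% confidence interval of -0.67 to 0.64 (exact permutation p = 0.944). The 4 low arrays are those with a value above 0 on the first principal component, with which Des had r = -0.995 over the 10 arrays, and 0.0195% of all probes were as far from 0. That component was computed from the same values, so this is a description of Des and not a test. Within batches 1 and 3, the Des difference was -0.43 and -0.47.

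Rgs5, a regulator of G protein signalling that is abundant in pericytes, read 9.31, 9.32, 8.69, 7.60 and 8.89 on KO 1 to KO 5 and 7.84, 7.42, 9.28, 8.27 and 7.50 on WT 1 to WT 5. KO 1 and KO 2 were the highest arrays, yet WT 3 came just below them and KO 4 lay among the 4 lowest, so the groups overlapped over nearly the whole range. The highest array stood 3.71-fold above the lowest, and the spread of Rgs5 over the 10 arrays exceeded that of 94.4% of probes. The KO mean of 8.76 ± 0.70 was above the WT mean of 8.06 ± 0.76 (SD, n = 5 each) by 0.70, with a 95% confidence interval of -0.21 to 1.61 (exact permutation p = 0.151, limma adjusted p = 0.999). Within batches the difference kept its sign, at 1.47 in batch 1 and 0.56 in batch 3, and it was 0.23 with the first 2 principal components as covariates. Without WT 3 it was 1.00, and without WT 2 it was 0.54.

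Gli1, the transcription factor and target gene of hedgehog signalling that marks capsular cells, read 7.49, 7.30, 7.21, 7.41 and 7.27 on KO 1 to KO 5 and 7.54, 7.26, 7.37, 7.27 and 7.33 on WT 1 to WT 5. Its levels were nearly flat, with 1.25-fold between the lowest array, KO 3, and the highest, WT 1, and the groups overlapped. The SD over the 10 arrays was 0.11, and 4.0% of probes had a lower one. The means of 7.34 ± 0.11 and 7.35 ± 0.11 (SD, n = 5 each) differed by -0.02, with a 95% confidence interval of -0.22 to 0.19 (exact permutation p = 0.817). The deposited values carry no detection call, so whether this probe read above background was not tested.

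The proteoglycans had a different pattern over batches. Dcn, which encodes decorin, a proteoglycan that binds collagen fibrils, read 12.57, 12.59, 11.60, 11.47 and 12.50 on KO 1 to KO 5 and 11.97, 12.11, 12.61, 12.46 and 12.39 on WT 1 to WT 5. KO 3 and KO 4, the only arrays of batch 2, were the lowest of all, and the other 3 KO arrays were among the 4 highest. KO arrays had a mean of 12.15 ± 0.56 and WT arrays of 12.31 ± 0.26 (SD, n = 5 each), a difference of -0.16 with a 95% confidence interval of -0.72 to 0.40 (exact permutation p = 0.587). The direction depended on how batch was treated. The difference was 0.61 within batch 1, 0.11 within batch 3, 0.35 with batch as a fixed block and 0.25 without batch 2, but -0.06 with batch as a random block.

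Lum encodes lumican, another collagen-binding proteoglycan, and is the next protein-coding gene after Dcn on chromosome 10 in RefSeq. It read 8.62, 9.14, 7.24, 7.28 and 8.90 on KO 1 to KO 5 and 8.30, 7.93, 9.52, 9.04 and 8.84 on WT 1 to WT 5. Again KO 3 and KO 4 were the lowest arrays, and WT 3 and KO 2 were the highest, 4.85-fold apart between WT 3 and KO 3. The KO mean was 8.23 ± 0.91 and the WT mean 8.73 ± 0.62 (SD, n = 5 each), a difference of -0.49 with a 95% confidence interval of -1.46 to 0.48 (exact permutation p = 0.341). As with Dcn the sign turned, to 0.57 within batch 1, 0.070 within batch 3, 0.31 with batch as a fixed block and 0.16 without batch 2, and it stayed negative, at -0.33, with batch as a random block. Batch 2 held no WT array, so for KO 3 and KO 4 batch and genotype cannot be told apart.

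**Figure D2:**
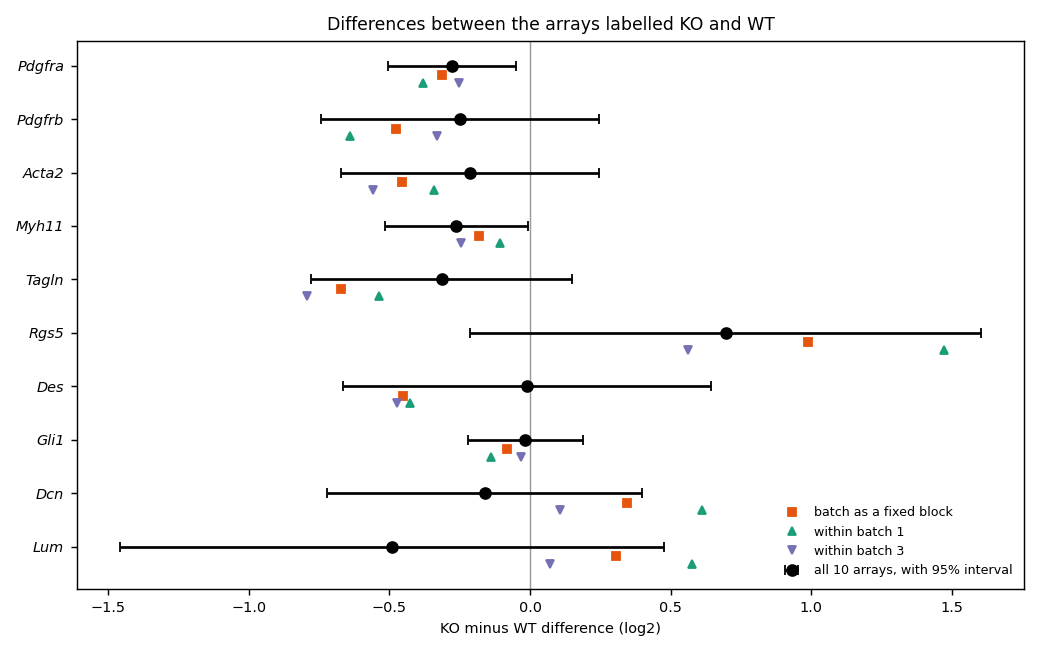
Difference of KO minus WT (horizontal axis, log2) for each of the 10 genes over all 10 arrays with its 95% confidence interval, beside the differences with batch as a fixed block and within batches 1 and 3. The intervals of Pdgfra and Myh11 lay below 0 before adjustment, and the points of Dcn and Lum lay below 0 over all arrays and above 0 with the fixed block and within each batch.

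Within batch 1 and within batch 3 alike, 7 of the 10 genes were lower in KO, against 44% of all probes, and these were Pdgfra, Pdgfrb, Acta2, Myh11, Tagln, Des and Gli1. The other 3, Rgs5, Dcn and Lum, were higher in KO in both batches. Batch 1 has 1 WT array and batch 3 has 1 KO array, so each of these contrasts rests on a single array on a side. Since that WT array and that KO array enter every gene, the 7 genes are not separate observations of the direction.

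**Figure D3:**
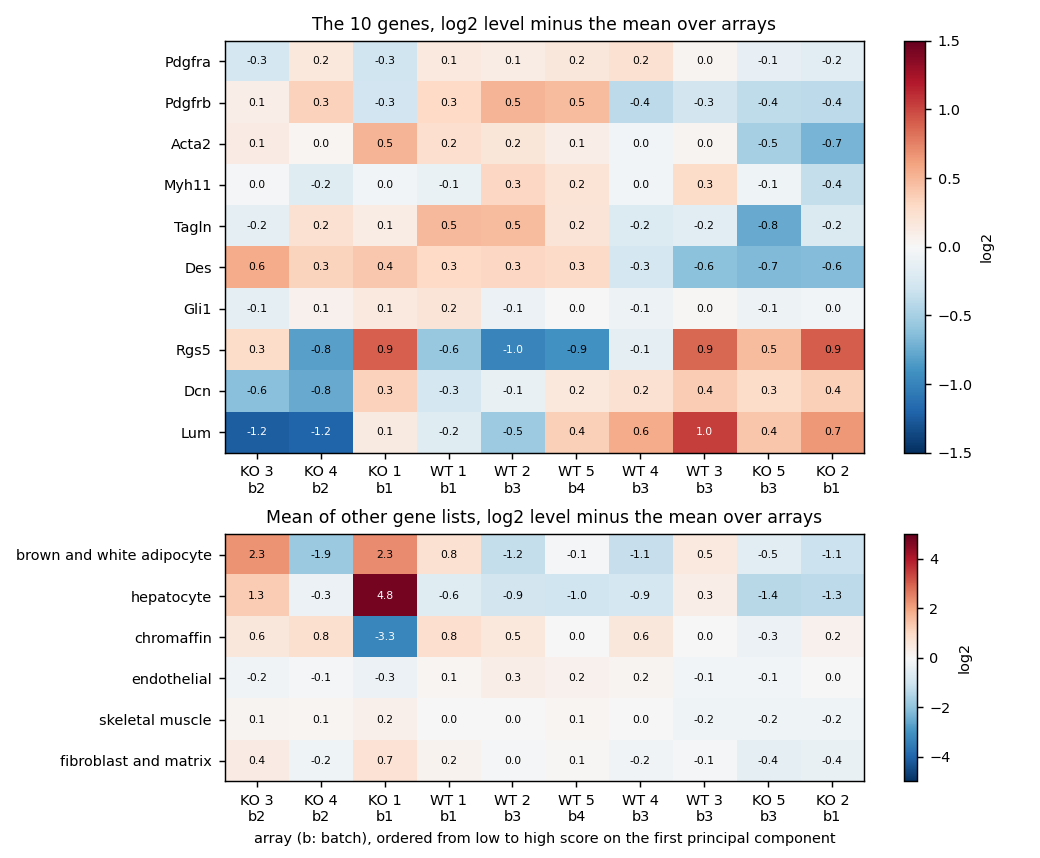
Level of the 10 genes on every array, as the difference from the mean of the gene over the 10 arrays (colour scale and printed values, log2), with the means of 6 other gene lists below, the batch under each array, and arrays ordered by the first principal component. Des was low on KO 2, KO 5, WT 3 and WT 4, and Dcn and Lum were low on KO 3 and KO 4.

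Correlations over the 10 arrays were computed for all 45 pairs of the 10 genes, with Benjamini-Hochberg adjustment over the 45. Dcn and Lum rose and fell together, with Pearson r = 0.94 (permutation p = 0.00024, adjusted p = 0.0108) and Spearman rho = 0.89 (permutation p = 0.0012, adjusted p = 0.0412), the 1 pair of the 45 past the threshold by r, while 4 pairs passed it by rho. Without KO 3 and KO 4, the arrays farthest from the median of Dcn, r was 0.82, so the relation did not rest on batch 2 alone. Pdgfrb and Rgs5, both known from pericytes, ran opposite to each other, with r = -0.87 (permutation p = 0.0045, adjusted p = 0.0627) and rho = -0.84 (permutation p = 0.0035, adjusted p = 0.0412). Without WT 2 and WT 5, the arrays farthest from the median of Pdgfrb, r was -0.78. Pdgfrb also ran with Tagln, at r = 0.78 (permutation p = 0.0056, adjusted p = 0.0627) and rho = 0.84 (permutation p = 0.0037, adjusted p = 0.0412), and at r = 0.73 without those same arrays. The fourth pair by rho was Des and Lum, whose value over all arrays is not given because Des falls into clusters. Batches held at most 4 arrays, too few for a value within a batch.

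Many of these relations cross the arrays that stood apart on the first principal component, so they were also computed over the 6 arrays with a value below 0 on it, KO 1, KO 3, KO 4, WT 1, WT 2 and WT 5. There Pdgfrb and Rgs5 had r = -0.98 and rho = -1.0 (exact permutation p = 0.0014 and 0.0028), and Dcn and Lum had r = 0.93 and rho = 0.83 (exact permutation p = 0.0236 and 0.0583). Pdgfra ran opposite to Rgs5, at r = -0.95 and rho = -0.66 (exact permutation p = 0.0222 and 0.175), and with Pdgfrb, at r = 0.88 and rho = 0.66 (exact permutation p = 0.0236 and 0.175). These p-values are not adjusted over pairs. The 6 arrays include KO 1 and KO 3, the highest in adipocyte markers. For Pdgfra these read 9.73 and 9.77, against 10.15 to 10.20 on the rest of the set. They were also its lowest arrays for Pdgfrb and its highest for Rgs5 and Des. The r values of Pdgfra with these 3 genes thus largely set KO 1 and KO 3 against the rest. The r of Pdgfrb with Rgs5 spans the same divide, with rho = -1.0 over the whole set. KO 1 and KO 3 were also the lowest of the set for Tagln, so the r of Des with Tagln, given below, spans it too. Pdgfrb and Tagln had r = 0.55 over the 6 arrays (exact permutation p = 0.278). For Des, whose arrays form separate clusters, no value over all 10 arrays is given. Over the 6 arrays it had r = 0.09 with Acta2 (rho = 0.14, exact permutation p = 0.833 and 0.803) and r = -0.86 with Tagln (rho = -0.66, exact permutation p = 0.0181 and 0.175). Des and Pdgfra had r = -0.84 (rho = -0.77, exact permutation p = 0.0458 and 0.103), and Des and Lum r = -0.52 (rho = -0.66, exact permutation p = 0.283 and 0.175).

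**Figure D4:**
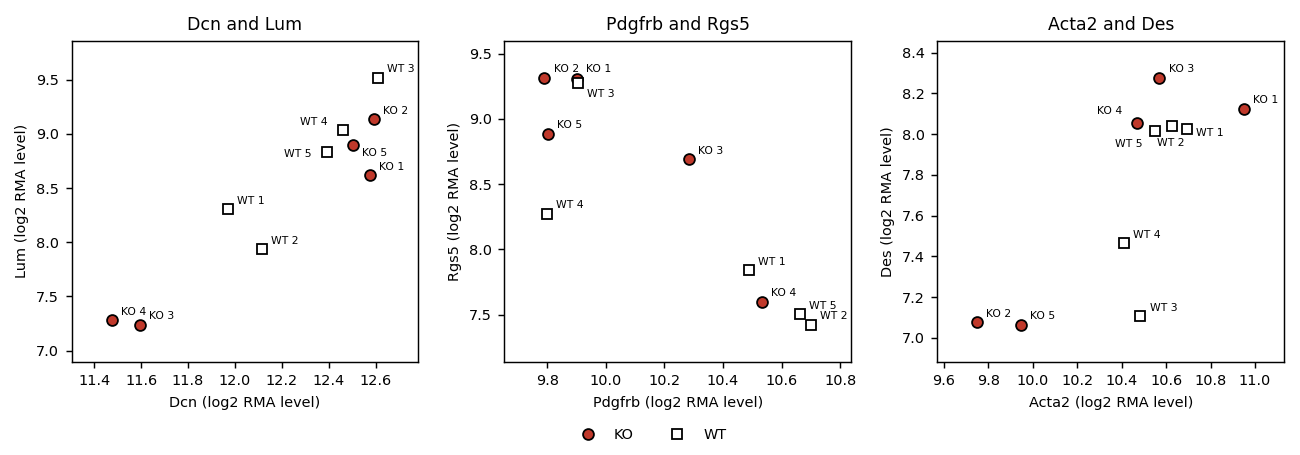
Levels (log2 RMA) of 3 gene pairs on the 10 arrays, with KO as filled circles and WT as open squares: Dcn and Lum, Pdgfrb and Rgs5, and Acta2 and Des. Dcn and Lum lie along a rising line with KO 3 and KO 4 at its low end, Pdgfrb and Rgs5 along a falling line, and Des divides the arrays into a high and a low cluster.

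The sizes of the correlations with the first principal component also set the genes apart: r was 0.79 for Lum, -0.78 for Acta2, -0.73 for Pdgfrb, 0.71 for Dcn, -0.70 for Tagln and 0.59 for Rgs5, but -0.23 for Gli1, -0.17 for Myh11 and -0.08 for Pdgfra. The median size over all probes was 0.63, and 94.8% of probes were at least as far from 0 as Pdgfra and 88.7% as Myh11. So the genes with the smallest unadjusted p between genotypes were among those that followed this component least. Their pooled SD within groups was also low, at or above that of 13.8% of probes for Pdgfra and 23.8% for Myh11. A small SD gives a small p for a given difference, so these traits are not separate. With the first 2 principal components as covariates, which were computed from the same values, the difference of KO minus WT went from -0.25 to -0.08 for Pdgfrb and from 0.70 to 0.23 for Rgs5, both closer to 0. It went from -0.21 to -0.36 for Acta2, from -0.16 to -0.39 for Dcn and from -0.49 to -0.81 for Lum, all farther from 0. For Pdgfra it was -0.18, for Myh11 -0.30 and for Tagln -0.28, and no adjusted p in this fit was under 0.610 for any of the 10 genes (limma).

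The genes most like each role group were sought among 11346 probes of single genes at or above the median level, by Pearson r over the 10 arrays with the mean of the group after each gene was centred. For the mean of the PDGF receptors they were Kifc3 (r = 0.99), Prpsap1, Ambra1, Plxnb2 and Ephb4 (r = 0.97), the last a receptor of ephrins. For the mural and smooth muscle genes they were Dapk1 (r = 0.94), Gfpt2, Mustn1, Cd302 and Fn1 (r = 0.92), Fn1 being fibronectin. For the proteoglycans they were Parp9 (r = 0.98), Mrps31, Stk38, Ppm1a and Fermt2 (r = 0.96). For Gli1 alone they were Eif2b3 (r = 0.89), Ror1 (r = 0.79), Wasf1, Atp5j and 2410080I02Rik (r = 0.76). All points share the same arrays and the structure described above, so high values are common, and nothing follows from them on shared function.

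Other genes of the same pathways and cell types were described by lists, for which the limma fit over all probes called 0 genes at an adjusted p under 0.05. Of the PDGF ligands, 4 of 4 had a lower mean in KO, 0 at an unadjusted p under 0.05, with a median difference of -0.10 and the smallest p for Pdgfa, at -0.21. In the hedgehog pathway, 7 of 12 measured genes were lower, and the median was -0.13. Boc, a co-receptor of hedgehog ligands, read 8.56, 9.06, 8.84, 9.20 and 9.22 on KO 1 to KO 5 and 9.33, 9.80, 9.25, 9.32 and 9.63 on WT 1 to WT 5. Every KO array of Boc lay below every WT array, at a difference of -0.49 with a standard error of 0.16 (limma adjusted p = 0.999), and the difference was -0.52 within batch 1 and -0.23 within batch 3. Gli1, the target gene of that pathway among the 10, differed by -0.02.

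Among the other contractile genes of smooth muscle, 9 of 14 were lower in KO, with a median of -0.10, and 1 had an unadjusted p under 0.05. This was Vcl, which encodes vinculin, a protein that anchors actin at the membrane and is not restricted to muscle. It read 10.40, 10.64, 10.38, 10.88 and 10.91 on KO 1 to KO 5 and 10.80, 11.11, 10.85, 11.05 and 11.26 on WT 1 to WT 5, a difference of -0.37 with a standard error of 0.14 (limma adjusted p = 0.999). KO 4 and KO 5 overlapped with WT 1 and WT 3. Of 7 regulators of smooth muscle genes, 4 were lower, with a median of -0.14 and the smallest p for Mrtfb, a partner of serum response factor, at -0.24.

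In the remaining lists no gene had an unadjusted p under 0.05 over all arrays in the fit without batch, and the medians of that fit lay near 0. Of 10 pericyte genes, 5 were lower, with a median of 0.003, and Rgs4, the neighbour of Rgs5 on chromosome 1, had the smallest p at -0.30, opposite in sign to Rgs5. Of 10 other small leucine-rich proteoglycans, 4 were lower, with a median of 0.08, and Bgn, which encodes biglycan, had the smallest p at -0.31. Of 15 measured fibroblast and matrix genes, 7 were lower, with a median of 0.01, and Sparc had the smallest p at -0.16. Of 8 capsule and stromal factors, 4 were lower, with a median of -0.02, and Gata6, a transcription factor, had the smallest p at -0.51, which became -0.04 with batch as a block.

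Some of these lists read differently with batch as a fixed block, where the median over all probes was -0.06 and 0 of 25664 probes passed an adjusted p of 0.05 (limma). Of the 15 fibroblast and matrix genes, 11 were then lower in KO, with a median of -0.27, near the -0.25 of the 10 genes in that fit. Without KO 1 and KO 3, the arrays highest in adipocyte markers, 13 of the 15 were lower, with a median of -0.27. Of the 10 pericyte genes 9 were, with a median of -0.17, and the median over all probes was -0.03. KO 1 and KO 3 also had the highest means of both lists, at 9.43 and 9.12 for fibroblast and matrix and 8.68 and 8.64 for pericyte genes. The pericyte mean of KO 1 leans on 1 gene, Vtn, which read 12.41 there and 6.70 to 8.97 on the other arrays. Leaving KO 1 and KO 3 out lowers the KO means of these lists by itself, so these counts are no separate sign of lower levels in KO. At an unadjusted p under 0.05 with the block (limma), 5.38% of all probes were lower in KO. The lower genes of the wider lists were Thy1 (-0.79), a surface protein of fibroblasts and neurons, the pericyte gene Ndufa4l2 (-1.20), Bgn (-0.58) and the contractile gene Smtn (-0.56). The higher ones were Aspn (1.58) and Omd (0.79), proteoglycans like Dcn and Lum, where 1.8% of all probes were higher by that rule. Apart from Bgn, these genes were named after their values were seen.

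**Figure D5:**
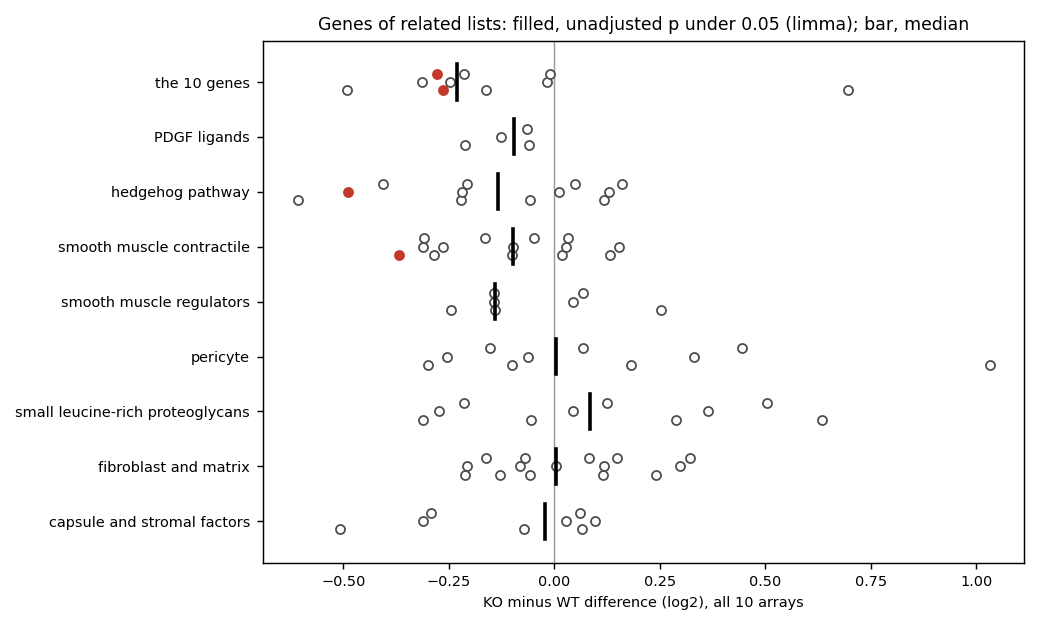
Differences of KO minus WT (horizontal axis, log2) of each measured gene in the 10 genes described here and in the 8 wider lists, with the median of each list as a bar and genes at an unadjusted p under 0.05 (limma) filled. Apart from the PDGF ligands, every list had genes on both sides of 0, and the median of the 10 genes was -0.23.

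Markers of other cell types are given beside these values. All 6 endothelial markers had a lower mean in KO, with a median of -0.33, and 1, Kdr, had an unadjusted p under 0.05 at -0.35 (limma adjusted p = 0.999). The endothelial list averaged 9.96 to 10.23 in KO and 10.12 to 10.60 in WT, and the difference was smallest for Cdh5, at -0.01. All 7 chromaffin markers were lower in mean, with a median of -0.82 that was -0.08 without KO 1. All 6 macrophage markers were lower, with a median of -0.15 over all arrays, -0.27 without KO 1 and -0.34 without KO 1 and KO 3. All 8 adrenal cortex markers were lower in mean, with a median of -0.11, and Nr5a1 had an unadjusted p under 0.05 at -0.47, but 3 of 8 were lower without KO 1 and KO 3, with a median of 0.05. The 6 hepatocyte markers were all higher in mean, with a median of 1.32 that was 0.15 without KO 1 and -0.43 without KO 1 and KO 3. The 8 adipocyte markers were all higher as well, with a median of 0.45, and without KO 1 and KO 3 all 8 were lower, with a median of -0.74. KO 1 and KO 3 were the highest arrays of the hepatocyte and adipocyte lists, so leaving them out lowers the KO means by itself. Medians were -0.03 for skeletal muscle, with 5 of 8 lower, 0.03 for exocrine pancreas, with 0 of 4 lower, 0.02 for kidney tubule, with 2 of 6 lower, and 0.05 for glia, with 1 of 3 lower. Adipose tissue has its own fibroblasts and mural cells, and the part of attached tissue in the levels of the 10 genes was not tested. With the adipocyte list mean as a covariate, the median difference of the 10 genes was -0.24, and without KO 1 and KO 3 it was -0.28. That median covers moves in both directions. Without these arrays the difference was smaller for Pdgfra (from -0.28 to -0.18), Rgs5, Dcn and Lum. It was larger for the other genes, such as Acta2 (from -0.21 to -0.50) and Des (from -0.01 to -0.33). KO 1 and KO 3 were the lowest arrays for Pdgfra and the highest for Des, so leaving them out moves the KO means by itself.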

How the data were processed

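Total RNA of 10 adrenal glands was hybridised to Affymetrix whole-transcript arrays. The values deposited by the authors are log2 expression levels per probe, and their notes name RMA, a method of background correction, quantile normalisation and probe summary. The software and its version were not found in the labels. The text given as the paper describes testis, so no method was taken from it. Of 35557 rows, 25689 held values, and 25 control probes were left out and 25664 tested. Probes with several symbols (224) or none (4655) represented no gene.

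Genotypes were compared on all 10 arrays by a two-sided limma fit (version 3.58.1, R 4.3.3, lmFit and eBayes), genotype as the only term, with Benjamini-Hochberg adjustment over all probes (threshold 0.05). Replicates are separate mice, and 5 arrays per group limit the precision. Batch entered as a fixed or random block. Correlations used 100000 resamples, or all 720 pairings for 6 arrays. The fit was tested on simulated data.

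The genes and lists were chosen with earlier results of these data known. Named genes were the 10, the list members at an unadjusted p under 0.05 or else the one with the smallest, and 5 likest genes per role group.

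Alternatives were batch blocks, single batches, a median shift, repeated quantile normalization, brighter probes, eBayes with trend and robust, arrayWeights, 2 principal components or the adipocyte list mean as covariates, arrays left out singly or in sets, and the exact permutation test. Leaving out batch 2, and KO 1 and KO 3 for the lists, was added after seeing the data.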

Additional observations from a re-analysis of the deposited data

How the results depend on the processing

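No alternative called any of the 10 genes past the adjusted threshold, and the smallest adjusted p (limma) was 0.421, for Pdgfra. Pdgfra, Pdgfrb, Myh11 and Tagln stayed lower and Rgs5 higher in KO under all 24 alternatives. In the reported fit, 2 genes were lower at an unadjusted p under 0.05 (limma), where 641 of 25664 probes were. It was 1 gene with batch as a fixed block (1381 probes) or a random block (650 probes). Repeated quantile normalization gave 1 (549 probes), arrayWeights 1 (1200 probes) and the fit without batch 2 gave 1 (2029 probes). The brighter probes gave 1 (377 of 12832 probes), and the exact permutation test gave 1. With trend and robust it was 0 (448 probes), and without KO 2, KO 5 and WT 3 it was 0 (1873 probes). With 2 principal components as covariates it was 4 (1114 probes), namely Acta2, Myh11, Dcn and Lum, and Pdgfra was not among them. Without single arrays it was 1 to 2, where 348 to 1156 probes were lower (1 without KO 1, KO 2, KO 4, KO 5, WT 2, WT 3 or WT 5). The number higher was 0 in the reported fit (237 probes), and 1 with arrayWeights (466 probes) and without batch 2 (474 probes). It was 0 to 1 without single arrays (1 for Rgs5 without KO 4 or WT 3, where 306 and 449 probes were higher). Without KO 2, KO 5 and WT 3 the mean was lower in KO for 6 genes, and likewise without batch 2.

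Signs turned as follows. Acta2 was 0.095 without KO 2, KO 5 and WT 3. Des was 0.011 with repeated quantile normalization, 0.27 without KO 2, KO 5 and WT 3, and -0.17 to 0.15 without single arrays. Gli1 was 0.020 without those arrays, 0.0012 without batch 2, and -0.056 to 0.029 without single arrays. Dcn was 0.35 with the fixed block, 0.61 and 0.11 within batches 1 and 3, 0.25 without batch 2, and -0.27 to 0.0067 without single arrays. Lum was 0.31, 0.57, 0.070 and 0.16 in the same order. With a random block they stayed at -0.06 and -0.33, and with 2 principal components they were -0.39 and -0.81, where Rgs5 was 0.23 and Pdgfrb -0.08. The cause was not tested. With 1 array on a side, the fits within batches borrow the spread of the other group. Averaging several probes per gene changed nothing, as each gene had 1 probe. No paired analysis was possible because replicate numbers only follow the order of the samples.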
